A study of Mus musculus with 12 samples.

Results

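The Hox genes are the 39 protein-coding genes whose symbols place them in the Hoxa, Hoxb, Hoxc or Hoxd cluster, and they were chosen by symbol alone from the 35275 genes of the deposited table. The set holds 11 Hoxa, 10 Hoxb, 9 Hoxc and 9 Hoxd genes, with paralogue numbers 1 to 13. RNA was read from both layers of the carotid artery in C57BL/6 mice aged 10 weeks on standard chow, namely Poldip2-/- mice and their littermate controls. Poldip2-/- mice lacked exon 4 of Poldip2 in the whole body, because a floxed line grown from 1 targeted embryonic stem cell clone had been crossed with EIIa Cre, a transgene active in the early embryo. Heterozygotes for the excised allele were then obtained by backcrossing to C57BL/6J. The endothelial layer was the RNA washed out of the lumen with Qiazol, a lysis reagent, and the medial layer was the RNA of the artery that was left, media and adventitia together. The labels list 2 endothelial and 4 medial samples of each genotype, whereas the design gives 4 mice per genotype.

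Each gene had 1 FPKM value per group (sequenced fragments per kilobase of transcript length, relative to all fragments mapped), so every difference below is between pooled values with no replicate check and no test. Values of single animals were not used, because their columns carry animal numbers that the labels do not tie to a genotype. Differences are given as the ratio of FPKM and as the log2 ratio after adding 1 FPKM to both values, which understates the difference of low genes. A gene was counted as higher or lower when this log2 ratio reached 1 in either direction.

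Hox genes encode homeodomain transcription factors that give cells their address along the head-to-tail axis. In each cluster the genes with low paralogue numbers are used in the head and neck, and those with high numbers in the trunk, the limbs and the pelvis. Genes of the same number in different clusters are copies of a common ancestor. Adult vascular cells keep part of the code of the place where they arose, and the common carotid artery forms from the artery of the third pharyngeal arch, into which neural crest cells with a low-numbered Hox code migrate. Hox proteins bind DNA with partners of the Pbx, Meis and Pknox families, which are homeodomain proteins of the TALE class.

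Poldip2, the deleted gene, had 8.27 FPKM in Poldip2-/- and 21.1 FPKM in control endothelial layers, and 10.3 FPKM in Poldip2-/- and 35.9 FPKM in control medial layers. Its FPKM in Poldip2-/- arteries was therefore 39.2% and 28.7% of the control value. The 10 markers of endothelial cells summed to 4138 FPKM in Poldip2-/- and 3959 FPKM in control endothelial layers, and to 87.2 and 165 FPKM in the medial layers of Poldip2-/- and control mice. The 10 markers of smooth muscle summed to 26701 FPKM in Poldip2-/- and 6630 FPKM in control medial layers, and to 524 and 180 FPKM in the endothelial layers of Poldip2-/- and control mice. Each layer thus held its own markers, and no marker of these lists was at 0 in any group.

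Summed over the 39 genes, Hox FPKM was higher in Poldip2-/- arteries in both layers. The sum was 46.1 FPKM in Poldip2-/- against 20.9 FPKM in control endothelial layers, a ratio of 2.21. In the medial layer it was 34.9 FPKM in Poldip2-/- against 12.2 FPKM in control arteries, a ratio of 2.86. More cells that use a gene and more RNA of it per cell cannot be told apart in such bulk samples. Hoxa genes made up the largest share of the sum in every group, with 71.0% in Poldip2-/- and 88.5% in control endothelial layers, and 72.9% in Poldip2-/- and 80.8% in control medial layers. Hoxb genes had the next largest share, and it was 21.1% in Poldip2-/- against 5.30% in control endothelial layers, and 22.7% in Poldip2-/- against 8.74% in control medial layers. The number of Hox genes at 1 FPKM or more was 12 in Poldip2-/- and 8 in control endothelial layers, and 8 in Poldip2-/- and 3 in control medial layers. Of all genes, 32.2% reached 1 FPKM in Poldip2-/- and 33.0% in control endothelial layers. In the medial layers 34.2% of all genes did so in Poldip2-/- and 42.0% in control mice.

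**Figure D1:**
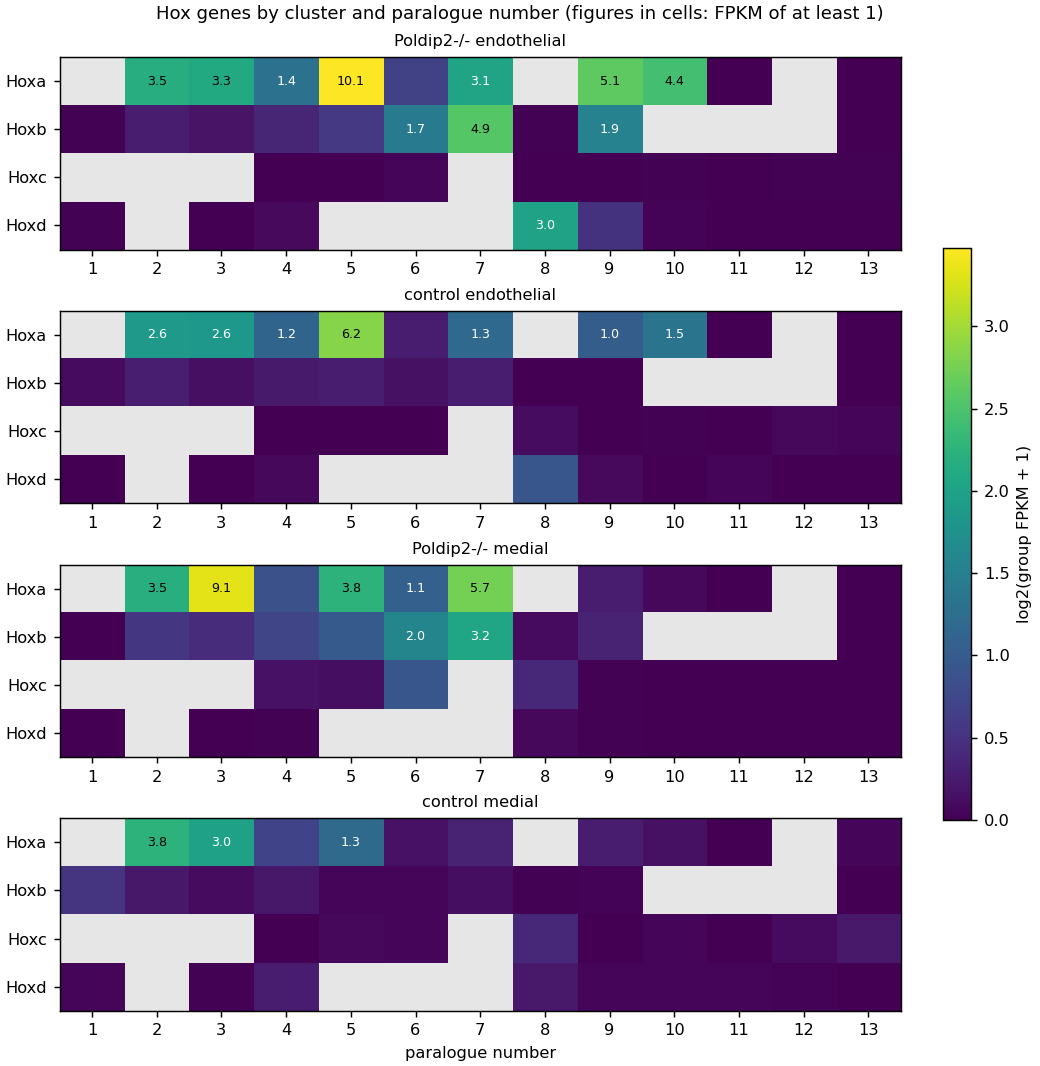
Level of each Hox gene by cluster (rows) and paralogue number (columns) in the 4 groups, as log2(FPKM + 1) of the single pooled value per group, with grey where the cluster has no such gene or it is not shown. The highest cell is Hoxa5 with 10.1 FPKM in the Poldip2-/- endothelial layer, and paralogue numbers 11 to 13 are near 0 in every group.

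In the endothelial layer, the difference between genotypes sat in the middle and high paralogue numbers. Genes numbered 1 to 3 summed to 8.34 FPKM in Poldip2-/- and 7.45 FPKM in control endothelial layers, a ratio of 1.12. Those numbered 4 to 8 summed to 25.8 FPKM in Poldip2-/- and 10.6 FPKM in control endothelial layers, a ratio of 2.43. For numbers 9 to 13 the sums were 11.9 FPKM in Poldip2-/- and 2.79 FPKM in control endothelial layers, a ratio of 4.27. The ratio was thus larger from each of these classes to the next, but it did not rise steadily by single paralogue number. It was 7.17 for number 6, 5.44 for 7, 3.06 for 8, 6.76 for 9 and 2.86 for 10. Numbers 11, 12 and 13 were lower in Poldip2-/- endothelial layers, with ratios of 0.108, 0.226 and 0.351 from sums near 0. The medial layer had another order. Genes 1 to 3 summed to 14.6 FPKM in Poldip2-/- and 7.93 FPKM in control medial layers, and genes 4 to 8 to 19.7 FPKM in Poldip2-/- and 3.44 FPKM in control medial layers, which are ratios of 1.84 and 5.74. The highest control medial value of genes 4 to 8 was 1.29 FPKM (Hoxa5). Olfactory receptor genes, which serve smell in the nose, had a 95th percentile of 1.52 FPKM in that group. The ratio of 5.74 therefore rests on control values that are not read as expression. Genes 9 to 13 stayed at the low end in the medial layer, with 0.554 FPKM in Poldip2-/- and 0.836 FPKM in control arteries.

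**Figure D2:**
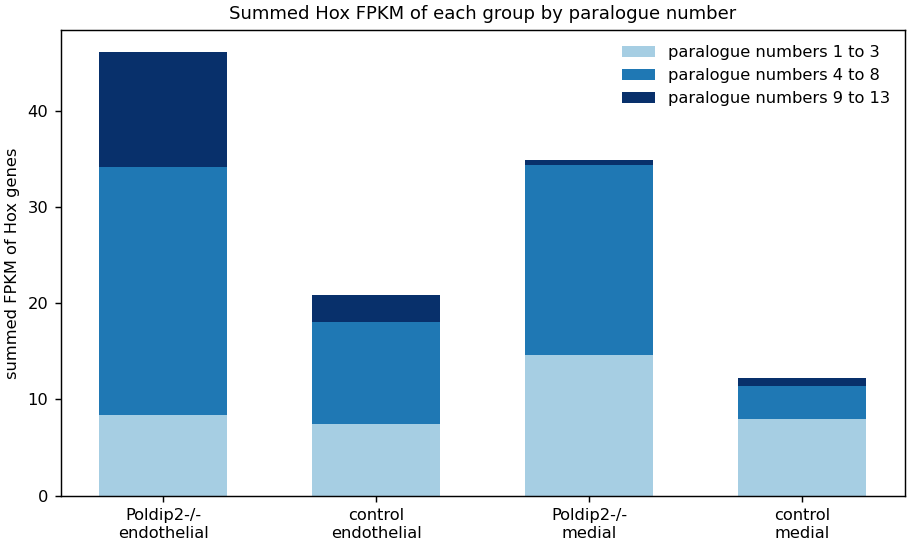
Summed FPKM of the 39 Hox genes in each group, stacked by paralogue numbers 1 to 3, 4 to 8 and 9 to 13. The bars reach 46.1 FPKM in Poldip2-/- and 20.9 FPKM in control endothelial layers, and 34.9 FPKM in Poldip2-/- and 12.2 FPKM in control medial layers.

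In the files' GRCm38 coordinates, the Hoxa cluster lies on chromosome 6, and the Hoxb cluster covers chr11:96194316-96368256, the Hoxc cluster chr15:102921103-103036852 and the Hoxd cluster chr2:74668310-74765142. Promoter windows from RefSeq (build GRCm38.p6), which run from 250 bases before to 50 bases after a start site, were found for 22 of the 39 genes, 24 windows in all. Those of Hoxa7, Hoxa9, Hoxa10 and Hoxd8 are printed as examples of genes that differed between genotypes. Hoxb6, Hoxb7 and Hoxb9, which also differed, had no window, and the Hoxa5 window is not printed. The Hoxa10 windows belong to separate start sites. Capitals mark the letters TTTATG, which caudal-type (CDX) factors bind, and CCAAT, which NF-Y binds, on either strand.
Hoxa7 (chr6:52218524-52218823, minus strand): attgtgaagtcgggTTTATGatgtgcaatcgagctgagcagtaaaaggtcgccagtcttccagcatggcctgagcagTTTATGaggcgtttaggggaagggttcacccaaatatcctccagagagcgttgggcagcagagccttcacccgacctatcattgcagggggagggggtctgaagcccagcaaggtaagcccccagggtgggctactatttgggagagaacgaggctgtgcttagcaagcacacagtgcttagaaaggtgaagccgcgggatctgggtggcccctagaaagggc
Hoxa9 (chr6:52227321-52227620, minus strand): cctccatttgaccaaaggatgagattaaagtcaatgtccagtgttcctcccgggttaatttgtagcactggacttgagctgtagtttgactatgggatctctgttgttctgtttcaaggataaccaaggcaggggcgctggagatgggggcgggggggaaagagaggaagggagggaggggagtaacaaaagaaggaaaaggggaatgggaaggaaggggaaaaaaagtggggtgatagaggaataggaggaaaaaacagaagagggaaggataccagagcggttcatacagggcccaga
Hoxa10 (chr6:52240805-52241104, minus strand, outer start): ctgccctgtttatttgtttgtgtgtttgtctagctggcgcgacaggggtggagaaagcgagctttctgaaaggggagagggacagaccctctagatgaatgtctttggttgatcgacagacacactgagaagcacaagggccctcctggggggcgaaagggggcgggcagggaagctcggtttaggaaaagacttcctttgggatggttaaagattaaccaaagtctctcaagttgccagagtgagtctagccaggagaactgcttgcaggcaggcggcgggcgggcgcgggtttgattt
Hoxa10 (chr6:52234890-52235189, minus strand, inner start): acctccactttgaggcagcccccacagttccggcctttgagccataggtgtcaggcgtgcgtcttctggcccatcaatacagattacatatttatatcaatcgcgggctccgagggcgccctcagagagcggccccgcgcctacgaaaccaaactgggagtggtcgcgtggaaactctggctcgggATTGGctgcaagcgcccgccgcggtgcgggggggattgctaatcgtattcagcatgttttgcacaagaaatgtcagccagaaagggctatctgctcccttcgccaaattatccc
Hoxd8 (chr2:74704365-74704664, plus strand): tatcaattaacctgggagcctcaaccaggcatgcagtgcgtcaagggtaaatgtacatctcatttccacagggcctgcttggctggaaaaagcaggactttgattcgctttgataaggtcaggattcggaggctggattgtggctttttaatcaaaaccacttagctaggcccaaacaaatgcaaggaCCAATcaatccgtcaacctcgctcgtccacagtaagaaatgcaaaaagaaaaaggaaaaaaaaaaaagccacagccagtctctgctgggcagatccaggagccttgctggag
The Hoxa7 window holds TTTATG at 2 places, and the other windows printed hold none. CCAAT occurs in the inner Hoxa10 window, where it reads ATTGG on the strand shown, and in the Hoxd8 window. On either strand, TTTATG was in 5 of the 24 Hox windows, those of Hoxa7, Hoxb8, Hoxd3, Hoxd4 and Hoxd11, and in 11.9% of all 32851 windows of the same length. CCAAT was in 15 Hox windows and in 37.4% of all windows, TGATNNAT (a Hox and Pbx site) in 4 and 8.85%, and TATAAA (the TATA box) in 4 and 13.6%. Hox windows were rich in CpG, with a median of 14.5 CpG dinucleotides in the Hox windows and 7 in all windows. These matches describe the letters of the windows only.

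In the endothelial layer, the genes that stood out as higher in Poldip2-/- mice were among those of paralogue numbers 6 to 10. Hoxa9, which takes part in blood formation and, in human endothelial cells, in the expression of nitric oxide synthase, had 5.11 FPKM in Poldip2-/- and 1.04 FPKM in control endothelial layers, a ratio of 4.93 and a log2 ratio of 1.58. Its neighbour Hoxa10, known for patterning the uterus and for its part in blood formation, had 4.40 FPKM in Poldip2-/- and 1.53 FPKM in control endothelial layers, a log2 ratio of 1.09. Hoxd8 had 3.01 FPKM in Poldip2-/- and 0.905 FPKM in control endothelial layers, a log2 ratio of 1.07. It was the only Hoxd gene at or above 1 FPKM in any group, and Hoxd9 followed with 0.422 FPKM in Poldip2-/- and 0.0664 FPKM in control endothelial layers.

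Hoxb genes of the same numbers were at or near 0 in control endothelial layers. Hoxb7, a gene of the upper trunk, had 4.93 FPKM in Poldip2-/- and 0.204 FPKM in control endothelial layers, a log2 ratio of 2.30. Hoxb6 had 1.71 FPKM in Poldip2-/- and 0.115 FPKM in control endothelial layers, a log2 ratio of 1.28. Hoxb9, which patterns the ribs together with the other genes numbered 9, had 1.92 FPKM in Poldip2-/- endothelial layers and was listed at 0 in control ones. The authors' scaled counts, averaged over the libraries of a group, were 124 in Poldip2-/- and 5.19 in control endothelial layers for Hoxb7, 65.5 and 4.44 for Hoxb6, and 96.0 and 0 for Hoxb9. Reads of these genes were therefore scarce in control endothelial layers and common in Poldip2-/- ones. Hoxb8, which lies between Hoxb7 and Hoxb9 on the chromosome, had 0.00958 FPKM in Poldip2-/- endothelial layers and was listed at 0 in control ones.

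No Hoxa gene below number 9 reached a log2 ratio of 1 in the endothelial layer after adding 1 FPKM. Hoxa5, which patterns the lung and the neck and upper chest skeleton, was the highest Hox gene of both endothelial groups, with 10.1 FPKM in Poldip2-/- and 6.19 FPKM in control layers, a log2 ratio of 0.63. Hoxa7 had 3.09 FPKM in Poldip2-/- and 1.27 FPKM in control endothelial layers, a log2 ratio of 0.85. Hoxa6, between them, had 0.606 FPKM in Poldip2-/- and 0.206 FPKM in control endothelial layers. Its FPKM ratio of 2.94, from low values, was close to the 2.87 of Hoxa10, and that of Hoxa7 was 2.43. For Hoxa4 the values were 1.45 FPKM in Poldip2-/- and 1.18 FPKM in control endothelial layers. The genes nearest the head end were closer between genotypes. Hoxa3 had 3.34 FPKM in Poldip2-/- and 2.63 FPKM in control endothelial layers, and Hoxa2, which sets the identity of the second pharyngeal arch, had 3.47 FPKM in Poldip2-/- and 2.63 FPKM in control endothelial layers.

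A minimum was then set, a mean of 1 FPKM over the groups compared, and 4 of the 10 Hox genes that met it were past a log2 ratio of 1 upwards (Hoxa9, Hoxa10, Hoxb7 and Hoxd8), where 0.434% of all 11514 genes were. Of the 10, Hoxb7 and Hoxd8 had a control value under 1 FPKM and met the minimum through the Poldip2-/- value, so this count is not read further. With no minimum FPKM, 6 of the 39 Hox genes were higher, Hoxb6 and Hoxb9 being added, against 0.147% of all 35275 genes. No Hox gene was past the same size downwards, where 1.44% of the genes with the minimum and 0.558% of all genes were. For scale, the log2 ratios of all genes with the minimum had a median of 0.05, and their 5th and 95th percentiles were -0.48 and 0.38.

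**Figure D3:**
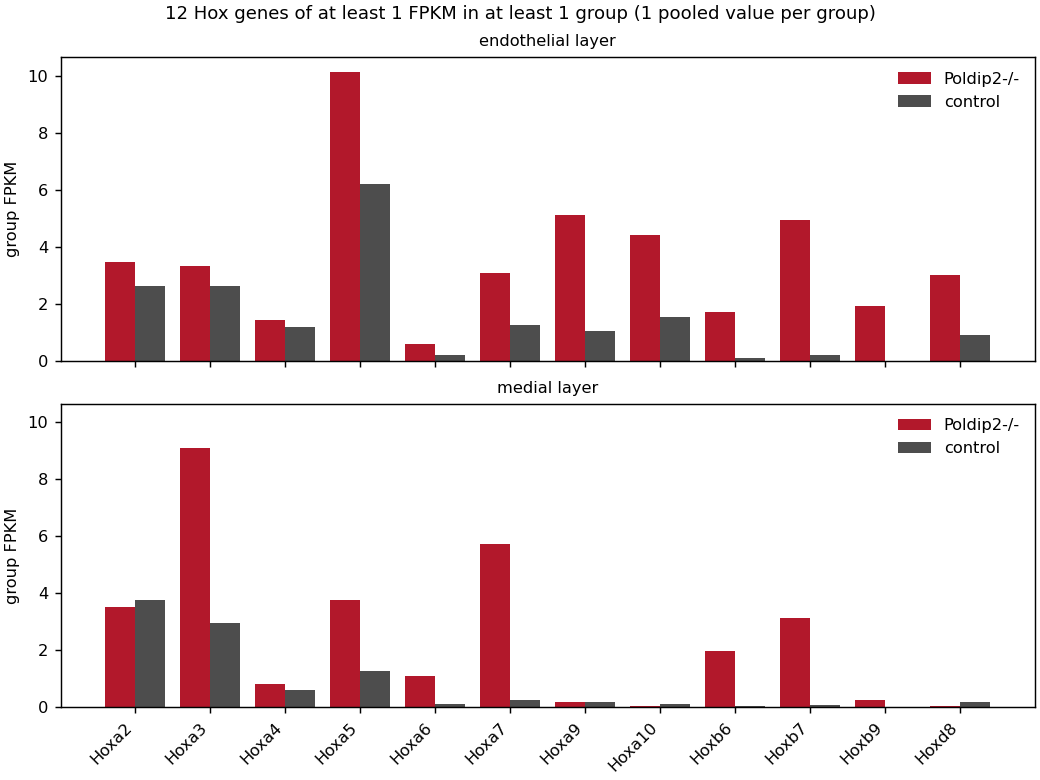
FPKM of 12 of the 13 Hox genes that reached 1 FPKM in at least 1 group, in the endothelial layer (top) and the medial layer (bottom), Poldip2-/- left of control, 1 pooled value per bar. Hoxa9, Hoxa10 and Hoxd8 are highest in the Poldip2-/- endothelial layer, with 5.11, 4.40 and 3.01 FPKM, and Hoxa3 and Hoxa7 are highest in the Poldip2-/- medial layer, with 9.11 and 5.71 FPKM.

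Marker values in the endothelial layer differed for other cell types. Of the smooth muscle markers, 4 of the 8 with the minimum FPKM were past the fold upwards in Poldip2-/- mice (sums of 524 FPKM in Poldip2-/- and 180 FPKM in control layers), and all 10 fibroblast markers were past it downwards (sums of 243 FPKM in Poldip2-/- and 665 FPKM in control layers). Of all genes with the minimum, 0.434% were past it upwards and 1.44% downwards. No endothelial marker was past it in either direction, with a median log2 ratio of -0.13. Their part in the Hox differences was not tested. The 6 Hox genes past the fold in the endothelial layer were also read in the Poldip2-/- medial layer. They had 3.15 (Hoxb7), 1.99 (Hoxb6), 0.259 (Hoxb9), 0.203 (Hoxa9), 0.0509 (Hoxa10) and 0.0509 FPKM (Hoxd8) there.

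The medial layer differed between genotypes mainly in the genes numbered 3 and 5 to 7. Hoxa3, which in mice is needed for the artery of the third pharyngeal arch, the carotid body and the thymus, was the highest Hox gene of the Poldip2-/- medial layer, with 9.11 FPKM against 2.97 FPKM in control medial layers, a ratio of 3.07 and a log2 ratio of 1.35. Hoxa7 had 5.71 FPKM in Poldip2-/- and 0.260 FPKM in control medial layers, a log2 ratio of 2.41. Hoxa5 had 3.76 FPKM in Poldip2-/- and 1.29 FPKM in control medial layers, a log2 ratio of 1.05. Hoxa6 had 1.09 FPKM in Poldip2-/- and 0.125 FPKM in control medial layers, a log2 ratio of 0.90.

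The trunk genes of the Hoxb cluster were again near 0 in controls. Hoxb7 had 3.15 FPKM in Poldip2-/- and 0.0930 FPKM in control medial layers, a log2 ratio of 1.93. Hoxb6 had 1.99 FPKM in Poldip2-/- and 0.0448 FPKM in control medial layers, a log2 ratio of 1.52. Hoxb5, the highest gene that stayed under 1 FPKM, had 0.982 FPKM in Poldip2-/- and 0.0302 FPKM in control medial layers. Hoxc6, the highest gene of its cluster, had 0.901 FPKM in Poldip2-/- and 0.0378 FPKM in control medial layers. The control values of these 4 genes rest on averages of 1.93, 1.42, 1.37 and 0.961 scaled counts per library, so their ratios are not given, while the Poldip2-/- averages were 73.1, 70.3, 49.2 and 25.6. Further towards the head end of the cluster, Hoxb4 had 0.650 FPKM in Poldip2-/- and 0.166 FPKM in control medial layers, Hoxb3 had 0.353 FPKM in Poldip2-/- and 0.0729 FPKM in control medial layers, and Hoxb2 had 0.463 FPKM in Poldip2-/- and 0.169 FPKM in control medial layers. Hoxb1 went the other way and was listed at 0 in Poldip2-/- and at 0.446 FPKM in control medial layers.

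Other medial Hox levels were similar or low. Hoxa2 had 3.52 FPKM in Poldip2-/- and 3.77 FPKM in control medial layers, and it was the highest Hox gene of the control medial layer. Hoxa4 had 0.819 FPKM in Poldip2-/- and 0.621 FPKM in control medial layers. Of the genes that were past the fold in the endothelial layer, Hoxa9, Hoxa10, Hoxd8 and Hoxb9 were low here in both genotypes, unlike Hoxb6 and Hoxb7. Hoxa9 had 0.203 FPKM in Poldip2-/- and 0.206 FPKM in control medial layers, Hoxa10 had 0.0509 FPKM in Poldip2-/- and 0.112 FPKM in control medial layers, and Hoxd8 had 0.0509 FPKM in Poldip2-/- and 0.177 FPKM in control medial layers. Hoxb9 had 0.259 FPKM in Poldip2-/- and 0.0278 FPKM in control medial layers.

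Past a log2 ratio of 1 upwards were 5 of the 6 Hox genes with the minimum FPKM (Hoxa3, Hoxa5, Hoxa7, Hoxb6 and Hoxb7), where 7.22% of all 13082 genes were. Hoxa7, Hoxb6 and Hoxb7 met the minimum through the Poldip2-/- value, so this count is not read further. With no minimum the same 5 of the 39 were higher, against 2.74% of all genes. No Hox gene was past it downwards, where 14.3% of the genes with the minimum and 9.43% of all genes were. The spread over all genes was wide in this layer, with a median log2 ratio of -0.17 and 5th and 95th percentiles of -1.69 and 1.26, so Hoxa5 lay within that range, and Hoxa3, Hoxb6, Hoxb7 and Hoxa7 lay above it.

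**Figure D4:**
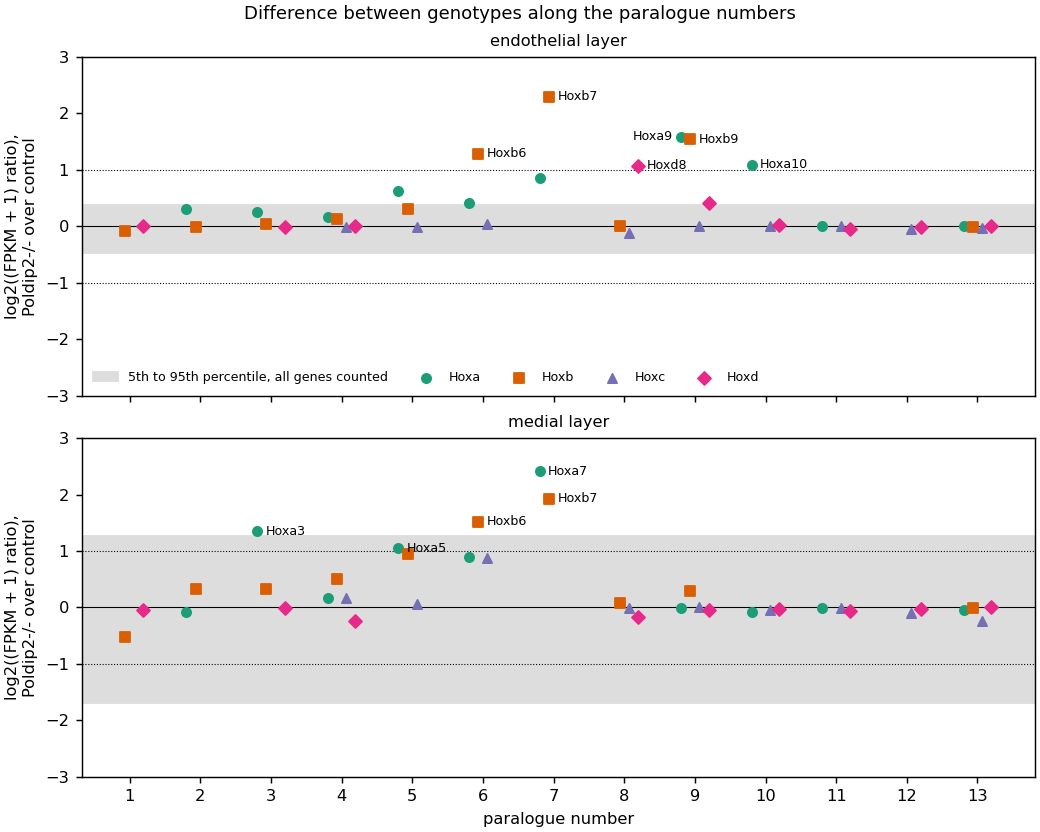
Log2 ratio of Poldip2-/- over control after adding 1 FPKM, by paralogue number, for 38 of the 39 Hox genes in the endothelial layer (top) and the medial layer (bottom). The grey band spans the 5th to 95th percentile of all genes with a mean of at least 1 FPKM, from -0.48 to 0.38 in the endothelial and from -1.69 to 1.26 in the medial layer, and the dotted lines stand at 1 and -1.

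Cell type markers moved widely with genotype in the medial layer. All 10 smooth muscle markers were past the fold upwards (sums of 26701 FPKM in Poldip2-/- and 6630 FPKM in control layers, a ratio of 4.03). Past it downwards were 7 of 10 fibroblast markers (6360 FPKM in Poldip2-/- and 12401 FPKM in control layers), 7 of 8 leukocyte markers (593 FPKM in Poldip2-/- and 2957 FPKM in control layers) and 8 of 8 fat cell markers (721 FPKM in Poldip2-/- and 2978 FPKM in control layers). Of the endothelial markers with the minimum FPKM, 3 of 9 were also past it downwards. Of all genes with the minimum, 7.22% were past it upwards and 14.3% downwards. The part of these markers in the Hox differences was not tested. Hox genes whose control value exceeded the 95th percentile of olfactory receptor genes (1.52 FPKM) had ratios of 3.07 (Hoxa3) and 0.935 (Hoxa2).

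Hoxb6 and Hoxb7 were past the fold upwards in both layers with no minimum FPKM, and Hoxb7 also with it. Counted by the sign of the difference alone, 12 of the 15 genes numbered 4 to 8 were higher in Poldip2-/- mice in the endothelial layer and 12 of 15 in the medial layer. Over all genes of the table, 26.5% were higher in Poldip2-/- endothelial layers and 20.1% in Poldip2-/- medial layers. Of the 8 genes numbered 1 to 3, 4 were higher in each layer, and of the 16 numbered 9 to 13, 6 were higher in the endothelial and 3 in the medial layer. Taking all 39 Hox genes, the sign was upwards for 22 and downwards for 13 in endothelial layers. For medial layers it was upwards for 19 and downwards for 20. These sign counts use the same values as the sums above and include genes of very low FPKM, so they are not read further. Both layers may come from the same animals, and the difference between layers in the effect of genotype was not tested.

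Between layers, Poldip2-/- arteries held the high-numbered genes on the endothelial side. Hoxa10 had 0.0509 FPKM in the medial and 4.40 FPKM in the endothelial layer, Hoxa9 had 0.203 FPKM in the medial and 5.11 FPKM in the endothelial layer, and Hoxd8 had 0.0509 FPKM in the medial and 3.01 FPKM in the endothelial layer, log2 ratios of -2.36, -2.34 and -1.93. Hoxb9 (0.259 FPKM in the medial and 1.92 FPKM in the endothelial layer) and Hoxa5 (3.76 FPKM in the medial and 10.1 FPKM in the endothelial layer) were lower by log2 ratios of -1.21 and -1.23. Hoxa3 was higher in the medial layer, with 9.11 FPKM there and 3.34 FPKM in the endothelial layer, a log2 ratio of 1.22. Hoxb6 (1.99 FPKM in the medial and 1.71 FPKM in the endothelial layer) and Hoxa2 (3.52 FPKM in the medial and 3.47 FPKM in the endothelial layer) were close. Hoxc6 had 0.901 FPKM in the medial and 0.0399 FPKM in the endothelial layer. In all, 1 of the 12 Hox genes with the minimum was past the fold upwards and 5 downwards, where 14.1% and 13.3% of all 12140 genes were. The same 6 were past it with no minimum, where 5.44% of all genes were upwards and 4.78% downwards. Of the 12, 5 met the minimum through the endothelial value, so these counts are not read further.

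Control arteries had the same sides for most of these genes at lower levels. Hoxa5 had 1.29 FPKM in the medial and 6.19 FPKM in the endothelial layer, a log2 ratio of -1.65. Hoxa10 had 0.112 FPKM in the medial and 1.53 FPKM in the endothelial layer, Hoxa9 had 0.206 FPKM in the medial and 1.04 FPKM in the endothelial layer, and Hoxd8 had 0.177 FPKM in the medial and 0.905 FPKM in the endothelial layer, log2 ratios of -1.19, -0.76 and -0.69. Hoxa7 had 0.260 FPKM in the medial and 1.27 FPKM in the endothelial layer of controls, whereas in Poldip2-/- arteries it had 5.71 FPKM in the medial and 3.09 FPKM in the endothelial layer. Hoxa3 was near even, with 2.97 FPKM in the medial and 2.63 FPKM in the endothelial layer. Of the 4 Hox genes with the minimum, none was past the fold upwards and 1, Hoxa5, downwards, where 20.2% and 12.1% of all 13354 genes were, and with no minimum Hoxa10 was added, where 8.81% of all genes were past it upwards and 4.64% downwards. The comparisons between layers use the same group values as those between genotypes.

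The remaining 26 Hox genes stayed under 1 FPKM in every group. They were 2 of the 11 Hoxa genes, 7 of the 10 Hoxb genes, all 9 Hoxc genes and 8 of the 9 Hoxd genes. The highest values of these genes were 0.0366 FPKM in the Hoxa cluster (Hoxa13, control medial layer), 0.982 FPKM in the Hoxb cluster (Hoxb5, Poldip2-/- medial layer), 0.901 FPKM in the Hoxc cluster (Hoxc6, Poldip2-/- medial layer) and 0.422 FPKM in the Hoxd cluster (Hoxd9, Poldip2-/- endothelial layer). The 9 genes numbered 11 to 13, which pattern the limbs, the tail and the genital tract, reached at most 0.178 FPKM (Hoxc13, control medial layer). Of these 9, 6 were listed at 0 in Poldip2-/- and 4 in control endothelial layers, and 8 in Poldip2-/- and 0 in control medial layers.

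Low values had a different floor in each group. Olfactory receptor genes, 1102 genes that serve smell in the nose, had a 95th percentile of 0.0666 FPKM in Poldip2-/- and 0.312 FPKM in control endothelial layers, and of 0.014 FPKM in Poldip2-/- and 1.52 FPKM in control medial layers. The share of them above 0 was 27.0% in Poldip2-/- and 69.8% in control endothelial layers, and 7.26% in Poldip2-/- and 93.2% in control medial layers. The floor was thus lower in Poldip2-/- groups, and its part in the Hox differences was not tested. Above the floor of their own group lay 18 Hox genes in Poldip2-/- and 9 in control endothelial layers, and 24 in Poldip2-/- and 2 in control medial layers. The floors differ, so these counts are not compared between genotypes, and the share of all genes above each floor was not counted. At a fixed 1 FPKM the counts were 12 in Poldip2-/- and 8 in control endothelial layers. In the medial layers they were 8 in Poldip2-/- and 3 in control mice. The control values of Hoxb6, Hoxb7 and Hoxb9 lay under the floor in both layers, as did those of Hoxa5 and Hoxa7 in the medial layer, so these values are not read as expression in controls. Hoxa2 and Hoxa3 were the 2 that lay above it in control medial layers.

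**Figure D5:**
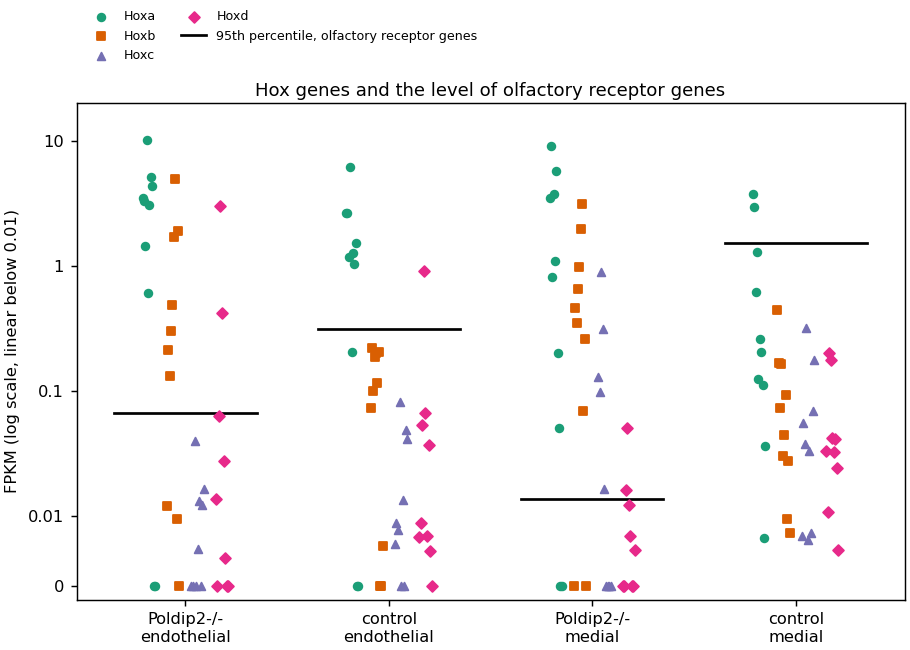
FPKM of 38 of the 39 Hox genes in the 4 groups on a log axis that is linear below 0.01, coloured by cluster, with a line at the 95th percentile of 1102 olfactory receptor genes of the same group. The line stands at 0.0666 FPKM in Poldip2-/- and 0.312 FPKM in control endothelial layers, and at 0.014 FPKM in Poldip2-/- and 1.52 FPKM in control medial layers.

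Hox genes had annotated lengths of 874 bases (Hoxa6) to 3367 bases (Hoxd11), with a median of 2287 bases against 1581 bases over all genes. In the medial layer the median log2 ratio of genes moved with length across 20 length bins. It was -1.63 in the bin of the shortest genes and 0.29 in that of the longest, so the ratios were also centred within these bins. The same 5 medial genes were then past the fold upwards, and 3 of the 4 endothelial ones, with Hoxd8 at 0.99. Exons of 16 Hox genes overlap exons of another annotated gene, and the counting is not stated to use strand. Of the exonic bases, 27.1% are shared with other genes for Hoxa3, 20.4% for Hoxa7 (with Hoxaas3, on the opposite strand) and 1.52% for Hoxa9 (with Mir196b), whereas Hoxa5, Hoxa6, Hoxa10, Hoxb6, Hoxb7, Hoxb9 and Hoxd8 share none. Reads of Hoxa3 and Hoxa7 and of their partners therefore cannot be told apart in part. Hoxaas3, a partner of both, had 0.442 FPKM in Poldip2-/- and 0.589 FPKM in control medial layers. Other partners of Hoxa3 went the other way. Hoxaas2 had 2.60 FPKM in Poldip2-/- and 1.20 FPKM in control medial layers, and 5730596B20Rik had 1.56 FPKM in Poldip2-/- and 0.519 FPKM in control medial layers. Its partners Gm28308 and Gm29430 are not given here.

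The coding genes beside the clusters were measured too. Among the 8 coding genes that flank the clusters, Skap2 (beside Hoxa) had 65.6 FPKM in Poldip2-/- and 60.0 FPKM in control endothelial layers, Mtx2 (beside Hoxd) had 14.8 FPKM in Poldip2-/- and 13.1 FPKM in control endothelial layers, and Calcoco1 (beside Hoxc) had 33.9 FPKM in Poldip2-/- and 34.3 FPKM in control endothelial layers. In the medial layer the same genes had 28.7 FPKM in Poldip2-/- and 39.4 FPKM in control arteries (Skap2), 7.65 FPKM in Poldip2-/- and 13.5 FPKM in control arteries (Mtx2) and 48.5 FPKM in Poldip2-/- and 27.3 FPKM in control arteries (Calcoco1). Over these 8 genes the log2 ratio of Poldip2-/- over control ran from -0.64 to 0.16 in the endothelial layer. In the medial layer it ran from -2.31 to 0.81. In either layer 0 were past the fold upwards, where 0.434% of genes with the minimum FPKM were in the endothelial and 7.22% in the medial layer. Evx1, Evx2 and Ttll6 were under 1 FPKM in every group, so this count is not read further. Skap1, beside Hoxb, was past the fold downwards in the medial layer, with 0.0572 FPKM in Poldip2-/- and 4.24 FPKM in control arteries. Poldip2 lies on the same chromosome as the Hoxb cluster, 17.7 Mb away.

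Noncoding genes of the clusters were mostly low. The highest was Hotairm1, a myeloid noncoding RNA of the Hoxa cluster, with 7.26 FPKM in Poldip2-/- and 7.92 FPKM in control endothelial layers, and 9.20 FPKM in Poldip2-/- and 4.11 FPKM in control medial layers. Hoxaas2 had 1.46 FPKM in Poldip2-/- and 1.38 FPKM in control endothelial layers, and 2.60 FPKM in Poldip2-/- and 1.20 FPKM in control medial layers. Hoxd3os1 had 0.960 FPKM in Poldip2-/- and 0.268 FPKM in control endothelial layers, and Hoxb5os had 0.901 FPKM in Poldip2-/- and 0.249 FPKM in control medial layers. Of the 2 noncoding genes with the minimum FPKM, 0 were past the fold in either genotype comparison. Of all genes with the minimum, 0.434% were past it upwards in the endothelial and 7.22% in the medial layer. Hotairm1 was just under the fold in the medial layer, with a log2 ratio of 0.998, and Hoxaas2 had 0.709 there. The 9 ParaHox and cluster-edge homeobox genes, relatives of the Hox genes such as the Cdx and Evx genes, were near 0, with sums of at most 0.774 FPKM in any group.

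The TALE partners were all measured. In the endothelial layer, 0 of the 8 with the minimum FPKM were past the fold, with a median log2 ratio of 0.02, and Meis2 (12.2 FPKM in Poldip2-/- and 9.58 FPKM in control layers), Pknox2 (12.7 FPKM in Poldip2-/- and 12.4 FPKM in control layers) and Meis3 (11.3 FPKM in Poldip2-/- and 10.0 FPKM in control layers) were the highest. In the medial layer, 2 of 9 were past the fold upwards and 1 downwards, the background there being 7.22% upwards and 14.3% downwards. Of these, Meis1 had 8.72 FPKM in Poldip2-/- and 3.68 FPKM in control medial layers, a log2 ratio of 1.05. Pbx4 had 0.345 FPKM in Poldip2-/- and 2.14 FPKM in control medial layers. It met the minimum through the control value, which lay between the 95th (1.52 FPKM) and 99th (2.59 FPKM) percentiles of olfactory receptor genes in that group. The highest TALE gene of the medial layer was Meis3, with 20.7 FPKM in Poldip2-/- and 14.5 FPKM in control arteries. Of the 9 medial values, 7 did not reach the fold upwards.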

How the data were processed

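RNA was sequenced in 12 samples listed by the labels, as libraries of poly(A) RNA without a stated strand. The methods name mm9 as the genome, TopHat and Bowtie for alignment and DESeq2 for comparing groups, and the submitters' notes also list HTSeq, STAR, STAR-Fusion and edgeR. Positions in the deposited table matched GRCm38 (GENCODE M21) for 38 of the 39 Hox genes, and are given as such. The values used are the FPKM that the authors deposited for each of the 4 groups, 1 value each, and the authors' group means of scaled read counts, deposited for each pair of groups. The gene length was taken from the same table, as deposited by the authors. How libraries were combined into a group FPKM is not stated in the sources used here. Another 24 columns hold counts and FPKM of single animals, and were used in no step, since labels do not tie animal numbers to genotypes. Depth and replicate spread are therefore not given, the planned count test was not run, and no p-value is given. The table also holds the authors' fold changes and p-values, which were not used.

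A pseudocount of 1 FPKM was added before each log2 ratio, and genes with a mean of at least 1 FPKM over both groups were counted past 1 log2 unit. The floor was the 95th percentile of olfactory receptor genes. The members, the gene lists and the rules were chosen with earlier results of these data known. Apart from a few items that are not reported here, every Hox gene of at least 1 FPKM in at least 1 group is named with its values, lower ones by cluster with the highest, and of other lists up to 6 genes with the highest mean FPKM and any past the fold in both layers; Hoxb1 to Hoxb4, Hoxb8, Hoxd9, Hoxd3os1, Hoxb5os, Hoxaas3, Skap1, Pbx4, Nkx2-3, Foxf1, Kmt2a and Ash1l were named after their values were seen. The alternatives were a pseudocount of 0.1 FPKM, no minimum, a 1.5-fold limit, centring on the median or within 20 length bins, scaled counts (10 added), protein-coding genes only, and other floors. Python 3.11.15, numpy 2.4.6, pandas 2.3.3 and matplotlib 3.10.9 were used, and the counting was tested on simulated data.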

Additional observations from a re-analysis of the deposited data

How the results depend on the processing

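No paired analysis was possible because each group has 1 pooled value, and for the same reason no replicate could be left out. Of the 64 counts of Hox genes past the fold under other settings, 51 were within 1.5 times the count given, counts of 0 that stayed at 0 included. Of the 160 ratios of single Hox genes, 9 moved across the fold. Hoxa7 in the endothelial layer was among them, at 0.85 as given and 1.22 with a pseudocount of 0.1 FPKM. A change of sign was looked for only in ratios past the fold as given, and none was found. A pseudocount of 0.1 FPKM with no minimum FPKM, chosen after seeing the data, moved most of its counts. It gave 9 Hox genes higher in the endothelial layer (0.609% of all genes), 14 higher and 3 lower in the medial layer (4.87% and 38.3% of all genes), 4 higher in the medial than the endothelial layer of Poldip2-/- mice, and 2 higher and 7 lower in the medial than the endothelial layer of controls. A limit of 1.5-fold gave 2 higher in the medial layer of Poldip2-/- mice. Of control Hox genes, 2 in place of 1 were lower in the medial layer with a pseudocount of 0.1 FPKM, no minimum, a limit of 1.5-fold, centring by median or length, or scaled counts. A floor of 1 FPKM left 8 Hox genes in the Poldip2-/- medial layer. Over the 13 genes of at least 1 FPKM, the Hoxa share was 93.8% in control endothelial, 82.4% in Poldip2-/- medial and 96.6% in control medial layers, the Hoxb share 17.5% in Poldip2-/- and 1.63% in control medial layers, the Hoxc share 0% and that of numbers 1 to 3 70.9% in control medial layers. Scaled counts moved the median medial log2 ratio by 0.21 and the median between layers of controls by -0.40, and over all genes they put 12.4% upwards and 13.1% downwards in the medial layer, and 15.6% upwards and 24.0% downwards between layers of controls. Unknown depth limits values near the floor.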

Other observations

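Other transcription factors that mark position along the body also differed by layer. Of 56 listed, 14 had a mean of at least 1 FPKM over both endothelial groups, and 1 of these was past the fold (upwards, as were 0.434% of all genes), Nkx2-3, a homeobox gene of gut and spleen vessels, with 14.6 FPKM in Poldip2-/- and 6.09 FPKM in control endothelial layers. In the medial layer, 4 of 21 were past it upwards and 4 downwards, beside 7.22% and 14.3% of all genes. Foxc1 and Foxc2, forkhead genes of arch artery and vessel development, had 21.6 and 33.6 FPKM in Poldip2-/- medial layers and 10.2 and 14.8 FPKM in control ones. Foxf1, a forkhead gene of the gut and lung mesoderm, had 4.21 FPKM in Poldip2-/- and 0.452 FPKM in control medial layers. It met the minimum through the Poldip2-/- value, and its control value lay under the floor of 1.52 FPKM and is not read as expression. Msx1, a homeobox gene of the head and limb buds, had 21.9 FPKM in Poldip2-/- and 45.9 FPKM in control medial layers. Gata6 had 106 FPKM in Poldip2-/- and 108 FPKM in control endothelial layers, and Tbx1, a gene of the pharyngeal arches, had 65.8 FPKM in Poldip2-/- and 83.3 FPKM in control endothelial layers. Osr1 was the highest in the medial layer, with 149 FPKM in Poldip2-/- and 82.0 FPKM in control arteries.

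Of the 19 chromatin regulators of the Hox clusters, Polycomb and Trithorax group members among them, 0 were past the fold in the endothelial layer, with a median log2 ratio of -0.02 and sums of 250 FPKM in Poldip2-/- and 263 FPKM in control layers. Phc2, the highest, had 72.4 FPKM in Poldip2-/- and 83.8 FPKM in control endothelial layers. In the medial layer 2 of 19 were past it upwards and 0 downwards, beside 7.22% upwards over all genes, with a median log2 ratio of 0.30. They were Kmt2a, a histone methyltransferase that keeps Hox genes active, with 4.07 FPKM in Poldip2-/- and 0.956 FPKM in control medial layers, and Ash1l, with 8.18 FPKM in Poldip2-/- and 3.10 FPKM in control medial layers. Kmt2a met the minimum through the Poldip2-/- value. Its control value lay under the floor of 1.52 FPKM and is not read as expression, so this count is not read further. The ratios of these regulators were not centred by gene length.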
